A study of Homo sapiens with 43 samples.

Results

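The genes described here are the cytosolic and mitochondrial heat shock chaperones: the HSP70, HSP110, HSP90 and small HSP families, the mitochondrial chaperonin pair and the J proteins that serve HSP70. They were taken by symbol (HSPA, HSPB, HSPD, HSPE and HSPH genes, HSP90AA1, HSP90AB1 and the DNAJA, DNAJB and DNAJC genes), leaving out the endoplasmic reticulum members HSPA5, HSPA13, DNAJB9, DNAJB11 and DNAJC3. The rule still keeps at least 7 other J proteins of the endoplasmic reticulum, named below, so all counts of members include them. Of 68 matching symbols, 59 reached a mean normalized count of 10 in at least 1 of the 4 deposited tables and 55 in all 4, among 25379 gene symbols in all. The 4 that reached it in only some tables were DNAJB3, DNAJB13, HSPA12A and HSPB6, and 9 never did (DNAJB7, DNAJB8, DNAJC5B, DNAJC5G, HSPA7, HSPB2, HSPB3, HSPB7 and HSPB9). RNA sequencing was done on 2 established cancer cell lines, H2087 from a lung adenocarcinoma and HCC1954 from a breast cancer that carries extra copies of ERBB2. Both were compared as parental cells and as latency-competent derivatives (LCC), which the labels describe as lines made from mouse organs that gave no bioluminescence signal. Every culture had 48 h, short of confluence, in 1 of 2 media, one rich in mitogens (MRM) and one low in them (MLM), and no other treatment is given. H2087 had 2 parental libraries with values and 6 LCC libraries in each medium, 1 for each of 6 derivatives. HCC1954 had 3 parental and 4 LCC libraries in each medium, and the latter are 2 libraries of each of the derivatives LCC1 and LCC2, so they stand for 2 derived lines.

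As background, HSP70 proteins bind unfolded stretches of protein in a cycle driven by ATP. J proteins bring them their clients and start ATP hydrolysis, and HSP110 proteins release the nucleotide so that the cycle can start again. HSP90 takes over later folding steps of kinases and hormone receptors, small HSPs hold unfolded proteins without ATP, and the chaperonin HSPD1 with its lid HSPE1 folds proteins in the mitochondrial matrix. The factor HSF1 drives many of these genes from heat shock elements, short inverted repeats of GAA in their promoters, and tumour cells are known to rely on this system for proteins made in excess.

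Promoters are shown because many, though not all, of a core of heat-inducible members were called higher in MLM in H2087. These were 12 of 14 in parental cells and 7 in the derivatives, and the part of the promoters in this was not tested. The core of 14 members (HSPA1A, HSPA1B, HSPA6, HSPA8, HSPA4L, HSPH1, HSPB1, HSP90AA1, HSP90AB1, HSPD1, HSPE1, DNAJA1, DNAJB1 and DNAJB4) is used throughout. Each line gives 120 bases upstream, 5′ to 3′ on the strand of the gene, from RefSeq on GRCh38.p14, with capitals for the repeats GAANNTTC or TTCNNGAA. The 6 promoters shown include that of HSPB8, which is outside the core. Of the 6, 5 end just before the start site, and that of DNAJA1 lies farther upstream, where its repeat runs from position -198 to -191. HSP90AA1 and DNAJB1 have 2 and 3 start sites in RefSeq, and for the one shown a site with repeats was preferred. HSPA8, the constitutive HSP70, is at chr11:123062137-123062256 (minus strand), the inducible HSPA1A at chr6:31815423-31815542 (plus strand), HSP90AA1, the inducible HSP90, at chr14:102087045-102087164 (minus strand), DNAJA1, a J protein of the cytosol, at chr9:33025023-33025142 (plus strand), DNAJB1, the main stress-induced J protein, at chr19:14518398-14518517 (minus strand), and the small HSP HSPB8 at chr12:119178811-119178930 (plus strand).
HSPA8: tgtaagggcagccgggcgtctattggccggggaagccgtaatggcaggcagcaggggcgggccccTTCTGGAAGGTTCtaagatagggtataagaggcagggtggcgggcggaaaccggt
HSPA1A: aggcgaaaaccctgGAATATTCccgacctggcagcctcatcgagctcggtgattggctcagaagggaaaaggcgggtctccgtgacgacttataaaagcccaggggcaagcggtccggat
HSP90AA1: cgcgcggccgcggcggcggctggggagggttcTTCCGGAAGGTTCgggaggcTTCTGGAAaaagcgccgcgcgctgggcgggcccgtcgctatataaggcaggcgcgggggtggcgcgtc
DNAJA1: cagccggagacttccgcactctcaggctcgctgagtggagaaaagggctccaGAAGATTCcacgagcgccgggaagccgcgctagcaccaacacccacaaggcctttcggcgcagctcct
DNAJB1: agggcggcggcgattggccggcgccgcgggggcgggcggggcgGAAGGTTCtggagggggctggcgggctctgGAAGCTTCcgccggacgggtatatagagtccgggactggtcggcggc
HSPB8: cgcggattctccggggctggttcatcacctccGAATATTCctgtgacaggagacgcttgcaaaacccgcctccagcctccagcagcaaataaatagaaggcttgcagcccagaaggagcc
The 250 bases before each RefSeq start site were searched for both repeats, each of which reads the same on both strands. A gene was counted if any of its start sites had at least 1 repeat. This held for 12 of the 14 core genes (85.7%, 23 start sites). It held for 6 of the 39 other members with a promoter in the RefSeq table (15.4%, 50 start sites) and for 14.0% of 27305 genes (35116 start sites). By start site the shares were 24.7% for all members and 11.6% for all genes. The core was chosen as heat-inducible, and HSF1 acts through such repeats, so the difference is partly built into the choice. HSPE1 and HSPH1 were the core genes without a repeat in this window, and bases farther upstream were not searched. For HSPE1 those bases include the repeats of its neighbour HSPD1 on the other strand, at -245 to -228 from the HSPD1 start. Longer runs of 3 units, GAA, TTC and GAA or TTC, GAA and TTC with NN between units, which overlap the repeats, were found at 5 core genes (35.7%), HSPA8, HSPA6, HSP90AA1, HSP90AB1 and HSPD1, against 0.557% of all genes. Promoters of 53 of the 59 members were matched, and a match describes letters and does not show binding.

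Total reads ran from 12.13 to 20.85 M in the H2087 MRM libraries and from 44.65 to 55.65 M in MLM. In HCC1954 they ran from 28.8 to 44.71 M in MRM and from 24.85 to 28.12 M in MLM, so depth moves with the medium in both lines, and its part in the media results was not tested. All 6 epithelial markers were present in every group, ERBB2 and its neighbours summed to at least 213001 in each HCC1954 library, and of the lung markers only SFTPC was under 10 in all H2087 libraries. Of 6 blood markers at most 1 reached a mean of 10 in a group, CD3E, HBB and HBA1 were under 10 in every library, and the list summed to 6.48 to 47 in all groups but parental H2087 in MRM, at 94.9 and 99.3, where CD14 carries it. The fibroblast list summed to 259 to 1116, with COL3A1 and DCN under 10 in every library. The endothelial list summed to 41 to 301 in H2087 and, with all 4 genes at a mean of at least 10, to 708 to 1428 in HCC1954. The part of these markers in the results was not tested. Some libraries stood apart over the core genes. HCC1954 LCC1-2 in MRM was the highest of its 4 libraries for 12 of the 14 (median 0.82 on the log2 scale over the others, against -0.00 for all genes). HCC1954 parental 3 in MLM was the highest of 3 for 12 of 14 (median 0.33), and H2087 LCC2 in MLM was the lowest of 6 for 11 of 14 (median -0.37). Counts that rest on them are given with and without them. The labels do not say that replicates are separate cultures, so p-values measure the spread between these libraries. In bulk RNA, fewer cells of a kind and less RNA per cell cannot be told apart.

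In H2087 the HSP70 genes HSPA8, HSPA1A and HSPA1B, the J protein gene DNAJA1, the HSP110 gene HSPH1 and the chaperonin gene HSPE1 were among those higher in MLM than in MRM, in parental cells and again in the derivatives. Of 56 members tested in parental cells, 30 were higher and 15 lower in MLM, where 38.2% and 34.4% of all genes were called (limma on log2 of the normalized count plus 1, Benjamini-Hochberg adjusted p under 0.05). The share of members called is thus above that of all genes for the higher and below it for the lower calls. Among the 15 lower calls, DNAJB13 passed the filter on low values only through MRM, so it adds no support. In the derivatives 15 of 55 were higher and 9 lower, with 15.9% and 16.7% of all genes, 16 and 9 without LCC2 in MLM, and 20 and 10 with a replicate block by derivative. Of the core genes, 12 of 14 were higher in parental cells, with a median log2 change of 0.67 against 0.03 over all genes tested, and 1 was lower. This comparison has 2 libraries in each group. Of its core calls, those of HSPA6, HSPB1, HSPD1 and HSPA4L were lost without 1 or more single libraries, as given below. In the derivatives 7 of 14 were higher by limma and 0 lower (median 0.30 against 0.01). edgeR on the reads called 8 higher and 0 lower, and at an unadjusted p under 0.05 limma had 8 and 1. Without LCC2 in MLM 8 were higher and 0 lower. In 8 of the 14 every derivative was higher in MLM, and none was lower in every one, a count not made over all genes. These 2 comparisons share no library: 13 genes were higher in both, which is 43.3% of the parental and 86.7% of the LCC calls, and 8 were lower in both (53.3% and 88.9%). Over all genes the shares were 32.3% and 77.7% for the higher and 40.4% and 83.4% for the lower calls.

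HSPA8, which serves unstressed cells, had normalized counts of 35956 and 40972 in the parental MRM libraries and 89073 and 91093 in MLM. In the 6 derivatives it had, from the lowest to the highest, 42258 to 70563 (median 43707) in MRM and 75989 to 83396 (median 80608) in MLM. No MLM library overlapped an MRM library of the same cells, and LCC2 and LCC4 were the high ones in MRM. The log2 change was 1.23 ± 0.07 (SE, n = 2 and 2, limma adjusted p = 3.84e-06) in parental cells and 0.69 ± 0.13 (n = 6 and 6, adjusted p = 0.00157) in the derivatives. HSPA1A had 617 and 832 in parental MRM and 1672 and 1715 in parental MLM libraries. The derivatives showed 774 to 1073 (median 982) in MRM and 1314 to 2011 (median 1662) in MLM, again without overlap. Its changes were 1.24 ± 0.12 (adjusted p = 7.43e-05) and 0.81 ± 0.10 (adjusted p = 1.08e-04). HSPA1B encodes the same protein from a near-identical copy, and how reads were split between the copies is uncertain. It was called higher in both (0.97 ± 0.13 and 0.49 ± 0.11).

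HSPA6, an HSP70 gene that is nearly silent without stress, went apart from these. It had 26.9 and 26 in the parental MRM libraries and 52.3 and 49 in MLM, and was called higher there (0.91 ± 0.21, limma adjusted p = 0.0055). Without parental MLM library 1 or 2 the call was lost, at 0.86 (adjusted p = 0.0755) and 0.96 (adjusted p = 0.0579). The derivatives had 32.5 to 88.1 (median 52.6) in MRM and 24.7 to 45 (median 34.9) in MLM, the groups overlapped, and the gene was lower in MLM in 5 of 6 derivatives without passing the test. HSPA12A, a distant HSP70 relative outside the naming rule and picked after its values were seen, had 22.1 and 23.6 in parental MRM and 141 and 112 in parental MLM libraries (2.40 ± 0.20, adjusted p = 2.51e-05). The mitochondrial HSP70, HSPA9, picked in the same way, moved the other way in parental cells, from 40397 and 37510 in MRM to 29123 and 29529 in MLM (-0.41 ± 0.05, adjusted p = 2.57e-04). In the derivatives it stood at -0.30 ± 0.12 (adjusted p = 0.0784), and a replicate block by derivative called it lower (adjusted p = 0.0128).

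**Figure D1:**
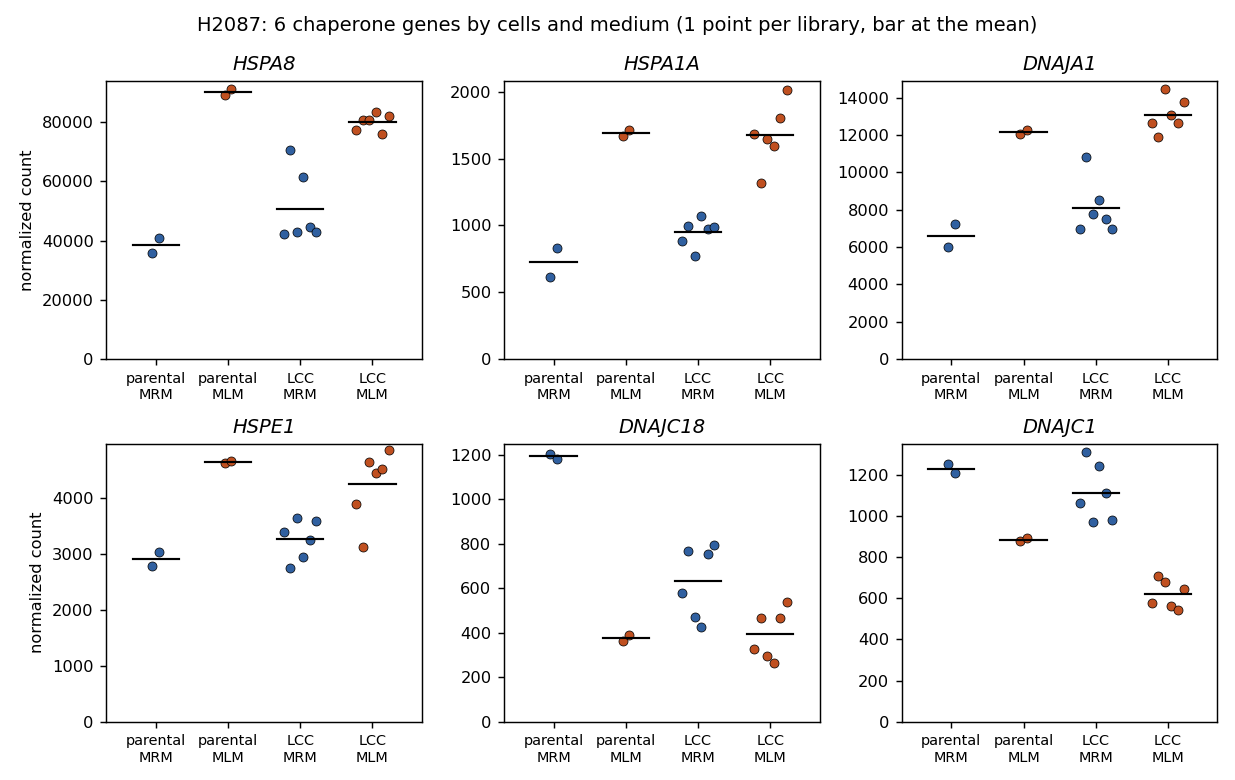
Normalized counts (vertical axis, linear from 0) of 6 members in each H2087 library, by cells and medium (horizontal axis), with a bar at the group mean. HSPA8, HSPA1A and DNAJA1 are higher in every MLM library (orange) than in every MRM library (blue) of the same cells, HSPE1 overlaps in the derivatives, and DNAJC1 runs the other way, as does DNAJC18 with overlap in the derivatives.

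Of the J proteins, all 4 of the DNAJA group were higher in MLM in parental cells and 1 of 4 in the derivatives. DNAJA1, the partner of cytosolic HSP70, had 5983 and 7236 in parental MRM and 12040 and 12243 in parental MLM libraries. It had 6988 to 10846 (median 7638) in LCC MRM and 11912 to 14464 (median 12845) in LCC MLM libraries, with no overlap in either. The changes were 0.88 ± 0.08 (limma adjusted p = 4.77e-05) and 0.70 ± 0.10 (adjusted p = 2.52e-04). DNAJB4, another cytosolic J protein, had 201 and 175 against 337 and 338 in parental cells and was called in both (0.85 ± 0.10 and 0.51 ± 0.13). DNAJC9, a nuclear J protein that also carries histones, had 957 and 1113 in parental MRM and 2629.5 and 2699 in parental MLM libraries. Its derivatives gave 1356 to 1681 (median 1522) in MRM and 2299 to 2513 (median 2354) in MLM, and the changes were 1.37 ± 0.07 and 0.65 ± 0.05. DNAJB1 was higher in MLM in parental cells only by its test (2844 and 3219 against 4042 and 4198, 0.45 ± 0.06), while the derivatives had 4292 to 6896 (median 6069.8) in MRM and 3531 to 7037 (median 5863) in MLM, which overlap widely.

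Among the other families, HSP90AA1 had 54266 and 58954 in parental MRM and 89435 and 90249 in parental MLM libraries (0.67 ± 0.06, limma adjusted p = 3.67e-05). The derivatives had 59654 to 79952 (median 64590) in MRM and 69720 to 86217 (median 77137) in MLM. The gene was higher in MLM in all 6 derivatives and missed the threshold there (0.22 ± 0.09, adjusted p = 0.0649). It was called with a replicate block by derivative (adjusted p = 0.0321), by edgeR (adjusted p = 0.0257), with values scaled to library totals, at 0.32 (adjusted p = 0.00613), without LCC2 in MLM, at 0.25 (adjusted p = 0.0451), and without LCC4 in MRM, at 0.28 (adjusted p = 0.0151). Its constitutive sister HSP90AB1 had 60413 and 63553 in parental MRM and 59853 and 61086 in parental MLM libraries, which overlap, and was not called in either kind of cells. HSPH1, the main HSP110, was higher in both (0.38 ± 0.07 and 0.38 ± 0.10), and HSPA4L, its relative, was lower in parental cells (-0.19 ± 0.06). That call of HSPA4L was lost with values scaled to library totals, at -0.12 (adjusted p = 0.0806), and without parental MLM library 1, at -0.13 (adjusted p = 0.236). HSPE1, the lid of the mitochondrial chaperonin, had 2782 and 3042 in parental MRM and 4621 and 4658 in parental MLM libraries, and was called in both kinds of cells (0.67 ± 0.05 and 0.38 ± 0.11). Its partner HSPD1 had 29905 and 31701 against 33559 and 33605, a change of 0.13 ± 0.05 with an adjusted p of 0.0476 that edgeR on the recovered reads did not call (adjusted p = 0.0537). It was also lost with genes of a mean of at least 1, at 0.13 (adjusted p = 0.0562), and without either parental MLM library or parental MRM library 1, at 0.13, 0.12 and 0.08. HSPE1 shares sequence with the readthrough gene HSPE1-MOB4, so its count is uncertain. Of the small HSPs, HSPB11, a part of the transport system of cilia, was higher in both (1.07 ± 0.07 and 0.74 ± 0.08). HSPB1 was called in parental cells at 0.33 ± 0.09 and lost that call without either parental MLM library, at 0.36 (adjusted p = 0.0825) and 0.30 (adjusted p = 0.124).

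**Figure D2:**
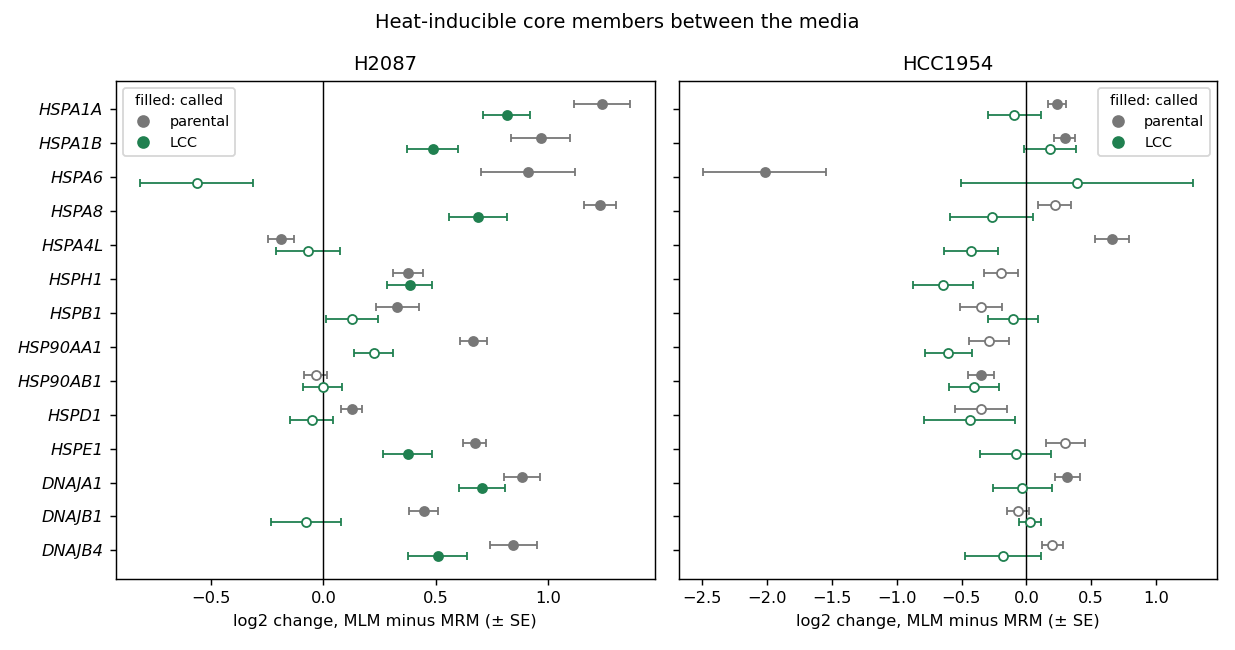
Log2 change between the media, MLM minus MRM, with its SE (horizontal axis; the scales of the panels differ) for the 14 heat-inducible core members, in H2087 (left) and HCC1954 (right), for parental cells (grey) and derivatives (green); filled points passed the test. In H2087 12 parental and 7 LCC points are called above 0, while in HCC1954 4 parental points and no LCC point are.

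Of the 15 members lower in MLM in parental H2087 cells and the 9 in the derivatives, 7 are J proteins of the endoplasmic reticulum. DNAJB12, DNAJB14, DNAJC1, DNAJC10, DNAJC14, DNAJC16 and DNAJC18, which are known to sit in its membrane or lumen, are grouped here after their values were seen. All 7 were lower in MLM in parental cells and in the derivatives (medians -0.46 and -0.49), a count that adds no support after that choice. In parental HCC1954 cells 3 of the same 7 were higher and 1 lower in MLM (median 0.04), with 25.5% and 20.9% of all genes called. In the HCC1954 derivatives 0 were higher and 1 lower (median 0.17), with 6.36% and 5.52%. In H2087, DNAJC18 had 1204 and 1184 in parental MRM and 365 and 389 in parental MLM libraries (-1.66 ± 0.07, limma adjusted p = 8.35e-07). The derivatives had 426 to 795 (median 666) in MRM and 262 to 537 (median 397) in MLM (-0.69 ± 0.21), with overlap. That call was lost without LCC1, LCC3 or LCC4 in MLM and without LCC5 or LCC6 in MRM, at -0.65, -0.62, -0.59, -0.63 and -0.62. DNAJC1, which brings HSPA5 to ribosomes at the reticulum, had 1256 and 1208 in parental MRM and 878 and 891 in parental MLM libraries. Its derivatives had 971 to 1314 (median 1089) in MRM and 542 to 710.5 (median 612) in MLM, without overlap (-0.48 ± 0.05 and -0.84 ± 0.10). DNAJC10, a disulfide reductase of the lumen, changed by -0.38 ± 0.06 and -0.72 ± 0.08. DNAJB12, which delivers membrane proteins for degradation, changed by -0.74 ± 0.06 and -0.47 ± 0.08. Beside them, DNAJC12, a cytosolic J protein that serves the aromatic amino acid hydroxylases, had 685 and 648 in parental MRM and 266 and 246 in parental MLM libraries (-1.38 ± 0.08, and -1.40 ± 0.39 in the derivatives).

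The chaperones of the endoplasmic reticulum themselves, which are outside the set, give the contrast. All 16 of that list were lower in MLM in parental cells (median -1.49) and all 16 in the derivatives (median -0.97). HSPA5, the HSP70 of the reticulum, changed by -2.53 ± 0.08 and -1.65 ± 0.16, against the 1.23 ± 0.07 and 0.69 ± 0.13 of HSPA8. The counts of the other lists are to be read against the shares of all genes, 38.2% higher and 34.4% lower in parental cells and 15.9% and 16.7% in the derivatives. The HSP90 cofactors had 9 higher and 3 lower of 15 in parental cells and 7 higher and 0 lower of 15 in the derivatives, led by CHORDC1 (1.41 ± 0.10 and 0.65 ± 0.09) and the immunophilin FKBP5 (0.71 ± 0.07 and 0.72 ± 0.16). The HSP70 cofactors had 8 higher and 2 lower of 13 and 5 higher and 1 lower of 13, with the nucleotide exchange factor BAG1 higher in both (1.08 ± 0.06 and 0.58 ± 0.06) and BAG3, which hands clients to autophagy, called in parental cells (0.72 ± 0.07). The cytosolic chaperonin TRiC with prefoldin had 10 higher and 1 lower of 14 and 3 higher and 0 lower of 14. HSF1 was higher in MLM in parental cells (0.65 ± 0.05) and in the derivatives (0.16 ± 0.05), and HSF2 was lower in parental cells (-0.77 ± 0.08). Partners and proteases of the mitochondrion had 3 higher and 5 lower of 13 and 0 higher and 4 lower of 13, with the matrix protease LONP1 lower in both (-0.95 ± 0.04 and -0.61 ± 0.15).

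The test of whether the LCC effect differed between the media in H2087, which is also the test of whether the medium effect differed between the cells, called 0 members higher and 3 lower of 56, against 4.08% and 6.64% of all genes. At an unadjusted p under 0.05 it had 6 and 13, and edgeR called 0 and 3. Without LCC6 in MLM limma called 5 lower, and without LCC4 or LCC6 in MRM it called 1 higher. DNAJC9 differed by -0.72 ± 0.11 (SE, limma adjusted p = 8.71e-04), and DNAJC2, a J protein bound to the ribosome, by -0.49 ± 0.09 (adjusted p = 0.00389). DNAJB6, which holds back protein aggregation, differed by -0.49 ± 0.14 (adjusted p = 0.0336), and its call was lost without LCC5 in MLM, without parental 1 or 2 in MLM and without parental 1 in MRM, at -0.48, -0.49, -0.49 and -0.37. For DNAJC2 the values were 1298 and 1335 in parental MRM and 1853 and 1846 in parental MLM libraries. The derivatives had 1332 to 1436 (median 1385) in MRM and 1267 to 1469.9 (median 1409) in MLM, so parental MLM stood above the other 3 groups. HSPA8 and HSPA1A, with smaller medium effects in the derivatives, gave differences of -0.54 ± 0.24 (adjusted p = 0.166) and -0.43 ± 0.21 (adjusted p = 0.218). With a replicate block 6 members were called higher and 8 lower, among them DNAJB1 (-0.52 ± 0.11, adjusted p = 0.00831), HSP90AA1 (-0.44 ± 0.13, adjusted p = 0.0332) and HSPA6 (-1.48 ± 0.40, adjusted p = 0.0225) lower and HSPB8 (0.72 ± 0.20, adjusted p = 0.0226) higher. In this test the block also pairs parental libraries by their numbers, which did not pair by correlation, so these calls rest on a pairing that the parental values do not show. HSPB8 was higher in MLM in all 6 derivatives, where the block called it (0.84 ± 0.10, adjusted p = 2.38e-04) and the fit without it did not.

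Between H2087 derivatives and parental cells few members differed. In MLM 4 were higher and 8 lower of 56, with 4.94% and 8.77% of all genes called, and in MRM 5 were higher and 4 lower, with 8.76% and 5.83%. With values scaled to library totals these became 2 and 9 in MLM and 3 and 6 in MRM. The counts rest on the 2 parental libraries: without either one in MLM 0 were higher and 1 lower, and without either one in MRM 0 and 0. Without LCC1, LCC3 or LCC5 in MLM 0, 2 and 0 were higher, and without LCC3 or LCC5 in MRM 3 were higher and 1 lower in each case. Of the core genes 0 were higher and 0 lower in MLM by limma (0 and 1 at an unadjusted p under 0.05, 0 and 0 by edgeR, 1 and 1 without LCC2), and 1 was higher and 1 lower in MRM. DNAJB1 was the higher one: in MRM the parental libraries had 2844 and 3219 and the derivatives 4292 to 6896 (median 6069.8) (0.96 ± 0.16, limma adjusted p = 0.00753). All 6 derivatives lay above both parental libraries, and the call was lost without parental 1 or 2, at 0.87 (adjusted p = 0.12) and 1.05 (adjusted p = 0.0647). HSPA4L was the lower one (1569 and 1607 in parental cells and 782 to 1162 (median 1082) in the derivatives, -0.63 ± 0.15), and lost its call without LCC5 or either parental library, at -0.61, -0.65 and -0.61.

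HSPA4, an HSP110 of the cytosol, was lower in the derivatives in both media. In MLM the parental libraries had 12691 and 12849 and the derivatives 9241 to 10809 (median 10164) (-0.35 ± 0.07), and in MRM they had 13593 and 13764 and 8927 to 12192 (median 9872) (-0.45 ± 0.11). No derivative reached a parental library in either medium. DNAJA3, the J protein of the mitochondrial matrix, had 4561 and 4719 in parental MLM libraries and 2922 to 3627 (median 3186) in the derivatives (-0.54 ± 0.09, limma adjusted p = 0.00657). Without parental 1 or 2 in MLM the calls of HSPA4 and DNAJA3 were lost, at -0.36 and -0.34 for HSPA4 and -0.56 and -0.51 for DNAJA3. In MRM the call of HSPA4 was lost without either parental library or without LCC1, LCC3, LCC5 or LCC6, at -0.45 to -0.44. HSPA12A, picked after its values were seen, differed widely. Both parental libraries had 141 and 112 in MLM, while the derivatives had 1.28 to 6.55 (median 3.3) and together held 37 reads. It passed the filter on low values only through its parental level, so its call among the 8 lower ones adds no support. In MRM, where its mean was under 10 and no test was made, parental libraries had 22.1 and 23.6 and the derivatives 0 to 8.55 (median 1.95). HSPB8, a small HSP that works with BAG3 and was also picked after its values were seen, was lower in every derivative than in every parental library in both media and was not called. Its values were 661 and 794 in parental MRM libraries and 71.6 to 410.4 (median 217) in the derivatives (-1.90 ± 0.57, adjusted p = 0.058). With values scaled to library totals it was called, at -1.98 (adjusted p = 0.0467), and so it was without LCC1 or LCC6, at -1.61 and -2.11.

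Some H2087 differences were shared with neighbouring genes. For each member the median log2 change of the 20 tested genes around it, 10 on each side in the gene order of GRCh38.p14, was taken. DNAJC21, which helps to mature ribosomes, was higher in the derivatives in MRM (0.70 ± 0.11) and its neighbours had a median of 0.73, with 19 of 20 of the same sign. DNAJC17, a factor in splicing, was at 0.69 ± 0.18 with a median of 0.88 and 20 of 20. The parental MRM libraries had 164 and 135 for DNAJC17 and 1199 and 1364 for DNAJC21. In MLM the library LCC6 stood low for both genes, at 121 and 1622. Both calls were lost without either parental MRM library, at 0.61 and 0.79 for DNAJC21 and 0.83 and 0.54 for DNAJC17, which was also lost without LCC3, LCC5 or LCC6, at 0.68, 0.72 and 0.71, and by edgeR (adjusted p = 0.0512). Between the media in parental cells, the neighbours of HSP90AA1 had a median of 0.49 and those of HSPA1B -0.46, the latter against the direction of the gene. The part of these regions in the results was not tested.

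In HCC1954 the small HSP genes HSPB8 and HSPB1 were lower in the derivatives than in parental cells in both media, and DNAJA4, HSPA12A and HSP90AB1 were higher. In MLM 6 of 59 were higher and 11 lower in the derivatives, with 17.6% and 18.9% of all genes called, and in MRM 10 of 57 were higher and 15 lower, with 19.2% and 19.3%. The shares of members were near or below those of all genes for the higher calls and near or above them for the lower ones. These tests between HCC1954 cells take the 4 LCC libraries as separate, though they come from 2 derived lines. Their SE and p thus do not measure the spread between derived lines. With values scaled to library totals the counts were 11 higher and 10 lower in MLM and 14 and 12 in MRM. Without LCC1-2 in MRM they were 11 and 19, without parental 3 in MLM 7 and 12, and without parental 1, 2 or 3 in MRM 6 and 8, 6 and 8, and 6 and 9. The 2 comparisons use separate libraries, and all 6 higher and all 11 lower calls of MLM were also called in MRM, where they make up 60% and 73.3%. Among these, DNAJA4 in both media and HSPB8 in MRM passed the filter on low values only through the group where they were high. Those calls add no support to the counts or the overlap. Over all genes 70.7% and 69.3% of the MLM calls were also called in MRM, which is 63.8% and 66.9% of the MRM calls. HSPB1 and HSPB11 were called lower in both media and HSPB8 in MLM, while HSPB6, also tested in MLM, was not called. Of the core genes 1 was higher and 1 lower in MLM, and 3 were higher and 2 lower in MRM (3 and 3 without LCC1-2). Without parental 1 or 2 in MLM 0 core genes passed in either direction, and without any 1 parental library in MRM 1 passed in each.

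HSPB8, whose MRM values were picked after they were seen, had 193, 183 and 186 in the parental MRM libraries and 8.22, 2.34, 4.36 and 5.41 in the derivatives (LCC1-1, LCC1-2, LCC2-1, LCC2-2, in this order here and below). In MLM the parental libraries had 539, 559 and 589 and the derivatives 61.4, 54.4, 12.6 and 18.2. The 4 LCC libraries in MRM held 24 reads of it together, and no LCC library came near a parental one. In MRM it passed the filter only through its parental level, so no test is given there. In MLM the log2 change was -4.19 ± 0.55 (SE, n = 4 libraries of 2 derived lines and 3 parental libraries, limma adjusted p = 0.00134). HSPB1, or HSP27, had 66944, 67966 and 57091 in parental MRM libraries and 46945, 27506, 28636 and 28458 in the derivatives. In MLM it had 53931, 59543 and 39252 and 34997, 32218, 26463 and 26428. Every derivative lay below every parental library, at -0.99 ± 0.20 in MRM and -0.75 ± 0.18 in MLM, and the call in MLM was lost without parental 1 or 2, at -0.70 (adjusted p = 0.0588) and -0.63 (adjusted p = 0.0569). HSPB11 was lower by the test in both media (-0.65 ± 0.21 and -0.85 ± 0.13).

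**Figure D3:**
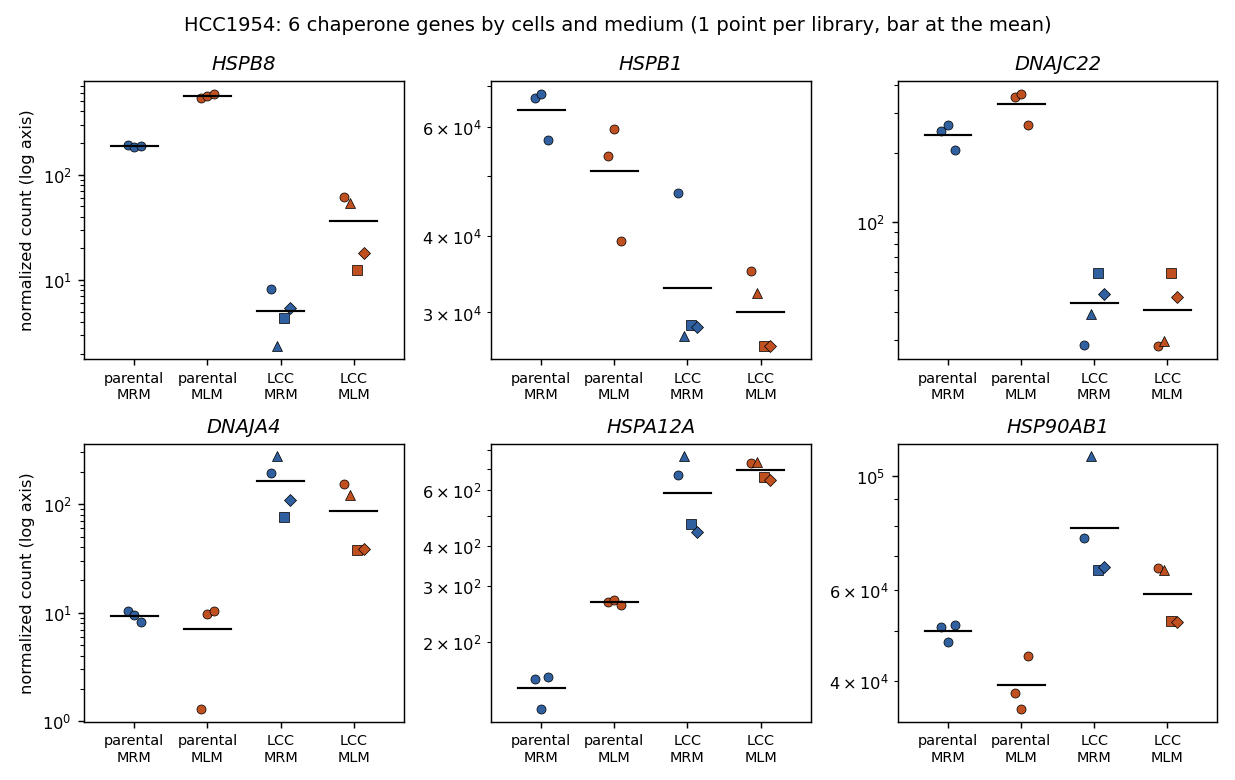
Normalized counts on a log axis (vertical) of 6 members in each HCC1954 library by cells and medium (horizontal), with a bar at the group mean; in the LCC groups circles and triangles are LCC1-1 and LCC1-2, squares and diamonds LCC2-1 and LCC2-2. HSPB8, HSPB1 and DNAJC22 are lower, and DNAJA4, HSPA12A and HSP90AB1 higher, in every LCC library than in every parental library of the same medium.

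Of the J proteins, DNAJC22 had 251, 265 and 208 in parental MRM libraries and 28.8, 39.1, 59.3 and 48 in the derivatives, with changes of -2.48 ± 0.26 in MRM and -3.03 ± 0.30 in MLM. DNAJC1 had 1776, 1769.9 and 1872 in parental cells and 593, 662, 458 and 449.5 in the derivatives in MRM (-1.76 ± 0.15, and -1.76 ± 0.17 in MLM). DNAJB6 was lower in both, at -0.68 ± 0.21 and -0.62 ± 0.12. In MRM its call was lost without any library but LCC1-2, where it ran from -0.71 to -0.59, and by edgeR (-0.63, adjusted p = 0.0532). DNAJA4, a relative of DNAJA1 that was picked after its values were seen, ran the other way. It had 10.4, 9.57 and 8.28 in parental MRM libraries and 193, 276, 75.9 and 110.2 in the derivatives. In MLM it had 1.29, 9.73 and 10.4 and 152, 121, 37.7 and 38.5. No LCC library overlapped a parental one, and since the gene passed the filter only through the derivatives no test is given. The LCC1 libraries were the higher ones in both media. DNAJB2, a J protein that sends clients to the proteasome, was higher in the derivatives at 1.05 ± 0.10 in MRM and 0.46 ± 0.08 in MLM. Its MRM values were 2277, 2221 and 2067 in parental cells and 4063, 5077, 4579 and 4459 in the derivatives. DNAJC6, or auxilin, which strips clathrin from vesicles, was called higher in MRM (82.3, 85.2 and 95.9 against 313, 539, 182 and 208, 1.68 ± 0.36).

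HSPA12A had 153, 123 and 155 in parental MRM libraries and 669.9, 766, 471 and 443 in the derivatives (1.99 ± 0.22, limma adjusted p = 6.49e-04). In MLM it had 268, 271 and 262 and 732, 734, 662 and 646 (1.37 ± 0.10). HSP90AB1 had 50934, 47636 and 51250 in parental MRM libraries and 75800, 108909, 65735 and 66618 in the derivatives, and 37894, 35294 and 44656 and 66071, 65637, 52238 and 51974 in MLM. All derivatives lay above all parental libraries, at 0.64 ± 0.19 and 0.58 ± 0.14. The call in MRM was lost without LCC1-1 or any parental library (0.65, 0.65, 0.60 and 0.65), and that in MLM without parental 1 or 2 (0.56 and 0.51). HSPA4L was higher in the derivatives in MRM (362, 393 and 443 against 754, 906, 995 and 979.5, 1.18 ± 0.13) and overlapped with parental cells in MLM. DNAJA1 was called higher in MRM, with 4573, 4298 and 4612 in parental cells and 6505, 11320, 6165 and 6521 in the derivatives (0.72 ± 0.21, adjusted p = 0.0321). Without parental 1, 2 or 3 that call was lost, at 0.73, 0.68 and 0.73, and without LCC1-2 it stood at 0.51. HSPA14, an HSP70 bound to ribosomes, was lower in both media (-0.94 ± 0.14 and -0.90 ± 0.19). DNAJB1 was lower in MRM (9969.7, 9819 and 9808 against 7345, 8634, 7243 and 7383, -0.37 ± 0.09) and lost that call without any 1 of the parental libraries, at -0.36, -0.37 and -0.37.

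The 2 derived lines were not alike in several members, which is given as a description of 2 libraries each. HSPD1 had 17705, 18318, 9442 and 9642 in MLM and 19293, 31205, 12499 and 13178 in MRM, so both LCC1 libraries lay above both LCC2 libraries, while parental cells had 8225, 7468 and 13219 and 11797, 11418 and 12525. HSPA6 had 86, 111, 12.6 and 16.2 in MLM and 52.4, 78.1, 9.6 and 16.2 in MRM, again higher in LCC1. HSPB8 in MLM was also higher in LCC1, though far under the parental level. DNAJC12, chosen after its values were seen, showed means of 74.6 in LCC1 and 8.05 in LCC2 in MLM. HSPA8 had 38362, 84727, 30475 and 31130 in MRM against 28193, 24628 and 27257 in parental cells, and the high value is that of LCC1-2. The same library was the highest for HSPH1 (5672, 13072, 6970.1 and 7262), HSP90AA1 (56025, 102077, 71012 and 74384) and HSPA1A (3291, 5099.8, 2617 and 2669.5). Its sister library LCC1-1 lay above both LCC2 libraries for HSPA8 and HSPA1A and below both for HSPH1 and HSP90AA1. Over the core genes LCC1-1 had a median of 0.30 over the other libraries, against 0.82 for LCC1-2, and the cause was not tested.

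**Figure D4:**
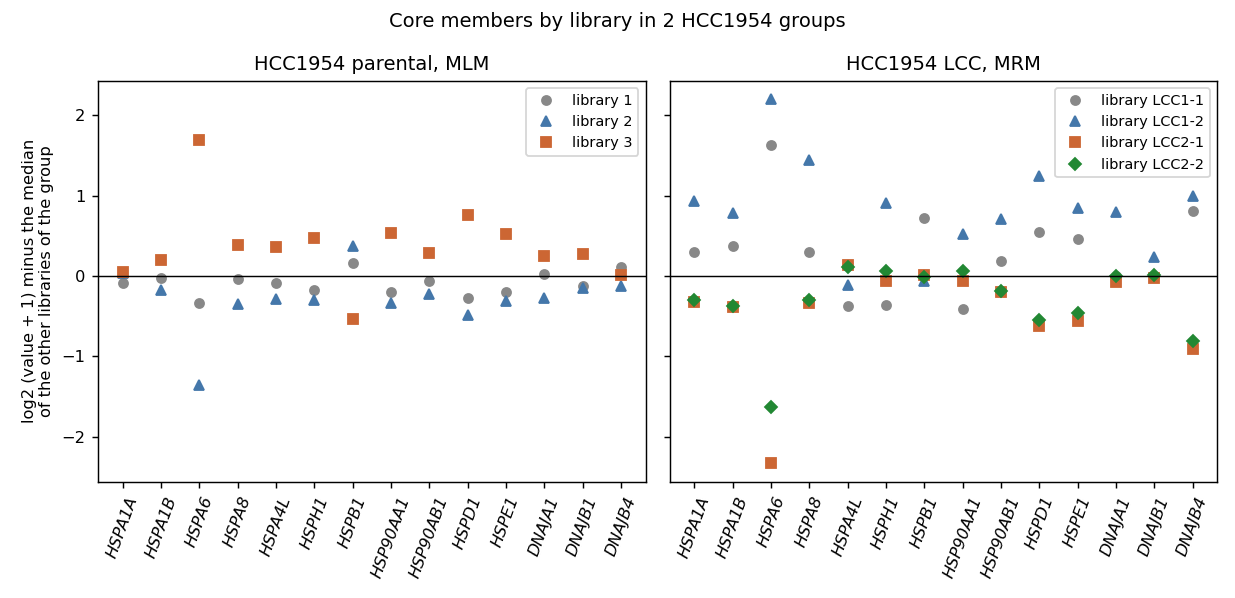
Log2 of the normalized count plus 1 in each library minus the median of the other libraries of its group (vertical axis) for the 14 core members (horizontal axis), in HCC1954 parental cells in MLM and derivatives in MRM. Parental library 3 and LCC1-2 are each the highest for 12 of the 14 genes, and for HSPA6 both LCC1 libraries lie above both LCC2 libraries.

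Several of these HCC1954 differences were shared with neighbouring genes, as measured above over 20 neighbours. The neighbours of DNAJC1 had a median of -0.94 in MLM and -0.87 in MRM, with 18 and 18 of 20 lower. Those of HSPA14 (-0.90 and -0.94 for the gene) had -0.83 and -0.82 (20 and 19 of 20). The neighbours of HSP90AB1 had 0.45 and 0.46. In MLM those of DNAJC21 (-0.78 ± 0.07 for the gene) had -0.71 and those of DNAJB2 0.47. In MRM those of DNAJC16 (-0.68 ± 0.08 for the gene) had -0.58 and those of DNAJB1 -0.42. Around HSPB8 the median was -0.27 in MLM and -0.26 in MRM, and around HSPB1 in MRM -0.28. These are smaller than the size from which medians are otherwise listed here. The part of the regions in the results was not tested.

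Between the media DNAJB2 was higher in MLM in both kinds of HCC1954 cells and HSPB8 in parental cells. In parental cells 16 of 58 members were higher and 13 lower in MLM, with 25.5% and 20.9% of all genes called. Among the 16 higher calls, DNAJB3 passed the filter on low values only through MLM, so it adds no support. In the derivatives 3 of 58 were higher and 1 lower, with 6.36% and 5.52%. With values scaled to library totals the counts were 11 and 17 in parental cells and 2 and 6 in the derivatives. Without parental 3 in MLM the parental counts were 19 and 23, and the lower count also fell to 7 without parental 2 in MLM and to 7, 7 and 6 without parental 1, 2 and 3 in MRM, where the higher count was 9, 10 and 8. Of the core genes 4 were higher and 2 lower in parental cells (median 0.07), 5 and 7 without parental 3 in MLM, and 1 and 2 with values scaled to library totals. The core counts without parental 1 or 2 in MLM were 2 and 1, and 3 and 1, and without parental 1, 2 or 3 in MRM they were 2 and 1, 2 and 1, and 1 and 0. In the derivatives 0 core genes were called by limma (median -0.14), 0 by edgeR, and 0 higher and 2 lower at an unadjusted p under 0.05. Without LCC1-2 in MRM 0 core genes were called and 2 members were higher and 1 lower. Leaving out any 1 library of the derivatives but LCC1-1 or LCC1-2 in MRM left 1 or 2 members higher and 0 lower. A replicate block by library name called 6 members higher and 10 lower there (2421 and 1981 of all genes), and a block by derived line, added after the data were seen, 9 and 16 (3100 and 2655). Called lower by both were HSP90AA1 (-0.60 ± 0.16, adjusted p = 0.0363), HSP90AB1 (-0.40 ± 0.12, adjusted p = 0.0484) and HSPD1 (-0.44 ± 0.11, adjusted p = 0.0372), with the p of the first block, and each was lower in MLM in both derived lines. With the first block and without LCC1-2 in MRM, also added after the data were seen, 7 members were higher and 11 lower, and these 3 stood at -0.42 (adjusted p = 0.0146), -0.30 (adjusted p = 0.0258) and -0.33 (adjusted p = 0.0364). HSPD1 moved from -0.44 to -0.17 without LCC1-2 in the fit without a block.

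The parental values of HSPB8 above stood 1.58 ± 0.08 higher in MLM (SE, n = 3 and 3, limma adjusted p = 8.62e-05), and the derivatives, with the values above, did not overlap between the media. In the derivatives it passed the filter only through MLM, so its call among the 3 higher ones adds no support. DNAJB2 was higher in MLM in both kinds of cells (1.24 ± 0.07 and 0.65 ± 0.10), with 2277, 2221 and 2067 in parental MRM and 5127, 5477 and 4894 in parental MLM libraries. HSPA4L was higher in parental cells (0.66 ± 0.13), and HSPA12A too (0.89 ± 0.12). HSPA6 fell in parental cells, from 69.5, 71.8 and 71.8 in MRM to 14.2, 8.51 and 37.8 in MLM (-2.02 ± 0.47), with parental 3 the high one in MLM. Without that library the change was -2.58, and the call was lost without parental 3 in MRM (-2.01, adjusted p = 0.0533). HSPA1A was called higher in parental cells with a small change (2556, 2799.9 and 2494 in MRM and 2957, 3127 and 3148 in MLM, 0.23 ± 0.07), as was DNAJA1 (0.32 ± 0.09). Both calls were lost with values scaled to library totals (0.17 and 0.25). They were also lost without some libraries: HSPA1A without parental 2 in MLM or 1 or 3 in MRM (0.22, 0.22 and 0.20), and DNAJA1 without parental 1 in MLM or any parental library in MRM (0.31, 0.33, 0.28 and 0.34). The interaction test of cells and medium called 0 members in either direction of 59 by limma and 0 by edgeR, with 0 higher and 6 lower at an unadjusted p under 0.05, against 0.0649% and 0.0909% of all genes. A replicate block, which here too pairs parental libraries by number, called HSPA4L lower (-1.09 ± 0.18, adjusted p = 0.0438).

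The calls of both lines are set side by side. Of 56 members tested in both, 0 were higher and 1 lower in the derivatives of both lines in MLM (DNAJC1), and 0 and 1 in MRM (HSPA4), which is 0% and 1.79% in each medium. Over all genes 0.706% and 1.48% were higher and lower in both lines in MLM, and 1.29% and 0.984% in MRM. DNAJA3, and HSPA12A with the filter noted above, were lower in the H2087 derivatives and higher in the HCC1954 ones in MLM, and DNAJC13 and DNAJC22 the reverse. In MRM DNAJB1, DNAJB6 and DNAJC21 were higher in H2087 and lower in HCC1954 derivatives, and HSPA4L and DNAJC24 the reverse. Between the media, 8 of 55 members were higher in MLM in the parental cells of both lines (DNAJA1, DNAJC5, DNAJC6, DNAJC11, DNAJC30, HSPA1A, HSPA1B and HSPA12A) and 1 was lower (DNAJB14), or 14.5% and 1.82% against 11.5% and 7.05% of all genes. HSPA6, HSPA14 and HSPB11 were among 7 that were higher in H2087 and lower in HCC1954. The reverse held for 5 (DNAJB5, DNAJB12, DNAJC1, DNAJC14 and HSPA4L). Opposite calls were not counted over all genes. DNAJB14 was the 1 member lower in MLM in all 4 media comparisons by limma, and its call in the HCC1954 derivatives was lost without any 1 library but LCC1-2 in MRM, at -0.48 to -0.39. In H2087 the calls between cells named here, other than HSPA12A, were lost without either parental library: DNAJC1 stood at -0.53 and -0.51, DNAJC13 at 0.28 and 0.25, DNAJC22 at 0.74 and 0.77, DNAJB6 at 0.22 and 0.46, and DNAJC24 at -0.47 and -0.47. Some were also lost without single derivatives. Of 8 libraries left out in turn, 6 ended the call of DNAJB6 in MRM, 5 that of DNAJC24 in MRM, 5 that of DNAJC22 in MLM and 4 that of DNAJC13 in MLM. In HCC1954 parental cells the call of HSPA14 between the media was lost without any 1 library but parental 3 in MLM (-0.48 to -0.36), and that of HSPA1B without parental 1 in MLM or parental 2 or 3 in MRM (0.30, 0.30 and 0.25) and with values scaled to library totals (0.23). In the HCC1954 derivatives against parental cells in MRM, the endoplasmic reticulum chaperones had 2 higher and 10 lower of 16 (median -0.43), with the disulfide isomerase PDIA6 at -0.78 ± 0.10. The HSF list had 3 higher and 0 lower of 5, with HSF2 at 0.58 ± 0.10 in MRM and 0.87 ± 0.14 in MLM. HSF1 was higher in MLM in parental HCC1954 cells (0.55 ± 0.08) and in the derivatives (0.42 ± 0.08). The mitochondrial protease YME1L1 was lower in the derivatives in both media (-1.32 ± 0.07 and -1.06 ± 0.12). Differences between the lines were not tested.

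**Figure D5:**
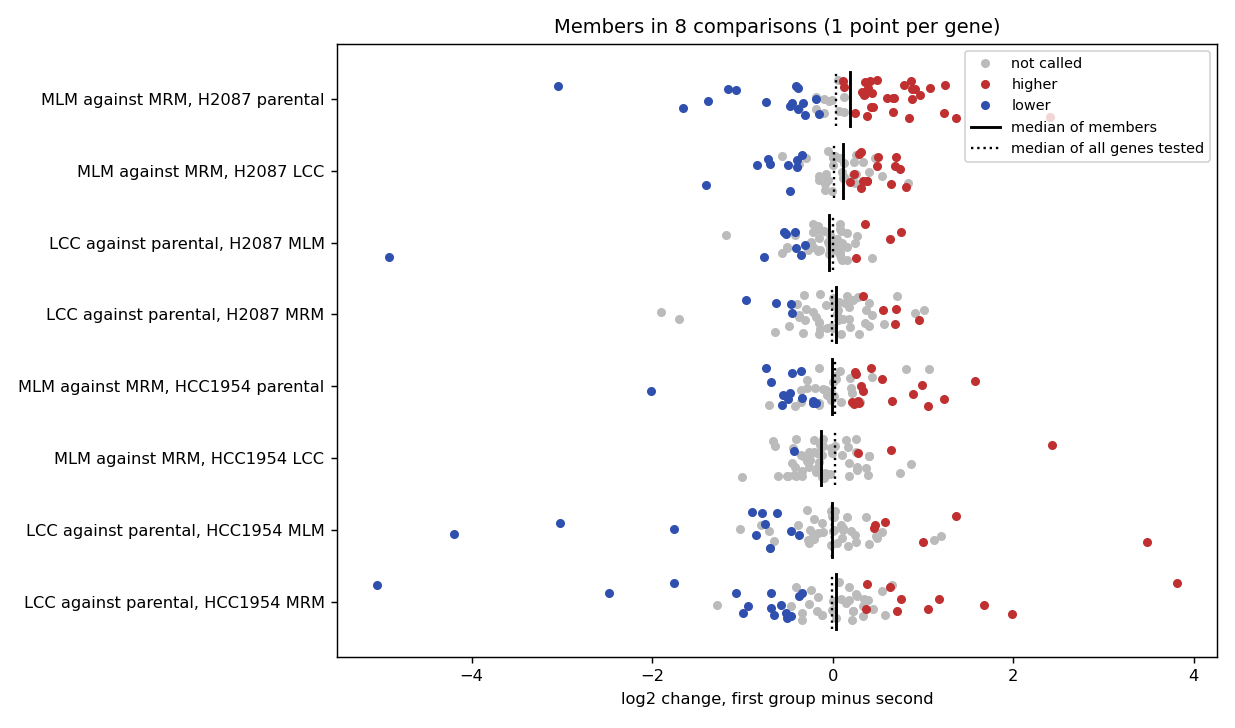
Log2 change of each member (1 point per gene, horizontal axis) in 8 comparisons (rows), coloured by the call, with the median of the members as a full and of all genes tested as a dotted line. The member medians lie at 0.19 and 0.11 between the media in H2087 and at -0.13 in the HCC1954 derivatives, and within 0.05 of 0 in the other 5 comparisons.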

How the data were processed

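The members and gene lists were chosen with earlier results of these data known. The deposited tables hold normalized counts, a signal that the authors made by dividing gene read counts by 1 factor per library: all values (100%) are whole multiples of 1 step per library within 0.01 reads. Both media tables of a line share 1 scaling. Per the submitters' processing notes, Bowtie2 2.2.4, HTSeq 0.6.1p1 and DESeq2 1.8.1 were used with builds hg19 and GRCh37; filters and strand are not given in the sources used here. Of 43 samples 31 are RNA, and 30 of these have values: parental replicate 3 of H2087 in MLM and 12 chromatin samples were not analysed here. Reads per library ran from 12.13 to 55.65 M.

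Tests were made in R 4.3.3 with limma 3.58.1 on log2(value + 1), a scale that understates changes of low genes, with a trended prior, over genes with a mean of at least 10 in the libraries compared. P-values are two-sided and Benjamini-Hochberg adjusted over all genes tested, and a call is an adjusted p under 0.05. Alternatives were a pseudocount of 10, a mean of at least 1, scaling to library totals, edgeR 4.0.16 (quasi-likelihood, TMM) on the recovered reads, a replicate block and leaving out each library; 2 further block settings for the HCC1954 derivatives were added after the data were seen. Both tests were tested on simulated data. Members named are the 14 core genes and, per comparison and direction, the 6 called members of a mean of at least 100 with the largest changes; others named are said to be chosen after their values were seen or belong to a count. Of each other list, up to 3 called genes per direction are named.

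Pairing comes from the derivative numbers in the labels. Over genes, deviations from the group mean of the libraries of 1 derivative in both media correlated at 0.416 to 0.762 in H2087 (6 pairs) and 0.506 to 0.697 in HCC1954 (4 pairs of library names), so derivatives pair. In HCC1954, 2 of the 4 libraries correlated best with the other library of their derived line, so the 4 names stand for 2 derived lines. Parental numbers gave 0.0708 in H2087 and 0.0118 to 0.146 in HCC1954 and do not pair. The replicate block still paired parental libraries by number wherever they entered a comparison, which includes both interaction tests.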

Additional observations from a re-analysis of the deposited data

Results flagged for a closer look

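A library was singled out where its gap to the nearest other library of its group was larger than Dixon's limit allows. Groups of 4 to 10 libraries were examined, which are the derivatives. Over 176 combinations of 44 members and a group, 16 were singled out, and chance alone does this in about 1 of 20 groups, with members of 1 library not independent of each other.

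In HCC1954 derivatives in MRM, the library LCC1-2 was apart for 7 members. It was the highest for HSPA8 (84727), DNAJA1 (11320), DNAJB1 (8633.9), DNAJB6 (4276.3), DNAJC25 (642.27) and DNAJB5 (310.19), and the lowest for DNAJC17 (163.3). In the same group LCC1-1 was the highest for HSPB1 (46945) and DNAJC12 (33.905). In H2087 derivatives in MRM, LCC4 was the highest for HSP90AA1 (79952), HSPH1 (7838.5), HSPA1B (1566.9) and DNAJC16 (1107.8), and LCC2 for HSPA4 (12192). In MLM LCC2 was the highest for DNAJB2 (1166.8) and LCC6 the lowest for DNAJC17 (120.59). What set these libraries apart was not tested.

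For 3 members the LCC effect in H2087 differed between the media by limma's interaction test: DNAJC9 by -0.71723, DNAJC2 by -0.48831 and DNAJB6 by -0.48708 on the log2 scale. In each the derivatives stood lower against parental cells in MLM than in MRM.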

How the results depend on the processing

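Over the 118 single-gene results, 0 changed sign in any setting run. The call of 6 ended with edgeR, of 4 with a mean of at least 1, of 1 with a pseudocount of 10 and of 9 with values scaled to library totals. Leaving out a library ended a call in 145 of 899 cases, most often a parental library. Scaling to totals moved the median of all genes from 0.01 to 0.11 between the media in H2087 derivatives and from 0.03 to 0.10 in parental cells, and from -0.00 to 0.11 (MLM) and 0.12 (MRM) between HCC1954 cells. With that scaling, members higher in H2087 derivatives became 2 in MLM and 3 in MRM, those higher in HCC1954 derivatives in MLM 11, and those lower in MLM in HCC1954 derivatives 6. edgeR called 3 higher in H2087 derivatives in MRM. With a mean of at least 1, 1 was higher in the H2087 difference between media and 0 were lower in MLM in HCC1954 derivatives. With the replicate block, the H2087 difference had 6 higher and 8 lower, the media comparison in HCC1954 derivatives 6 and 10, and the HCC1954 difference 1 lower, while of 69 single-gene results run with the block 5 gained a call. In HCC1954 derivatives a block by derived line gave 9 higher and 16 lower between the media, and the first block without LCC1-2 in MRM 7 and 11. The causes were not tested. Leaving out each library in turn gave, for H2087 derivatives against parental cells, 0 to 5 higher and 1 to 9 lower in MLM and 0 to 7 and 0 to 4 in MRM, and 0 to 1 and 2 to 5 for the difference. In HCC1954 it gave 6 to 11 and 8 to 19 in MRM, 8 to 19 and 6 to 23 between the media in parental cells, 1 to 3 and 0 to 1 in the derivatives, and 0 to 1 lower for the difference. Where a group keeps 1 library, it is assumed to vary like the others. Depth limits members of few reads, such as HSPA12A in H2087 and HSPB8 in HCC1954 derivatives, and 2 parental libraries limit each H2087 comparison.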
